A study of Mus musculus with 4 samples.

Results

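The 8 genes described here, Meis1, Meis2, Meis3, Pbx2, Pbx3, Pbx4, Pknox1 and Pknox2, encode TALE homeodomain proteins that act as DNA-binding partners of Hox proteins. They were chosen by name, as all probes whose platform annotation gives one of these symbols, and they account for 27 of the 45281 probes and for 8 of the 19057 genes named on the array. The cells were mouse embryonic stem cells of the established line E14, grown in medium with serum and LIF (the cytokine that sustains self-renewal). For 2 hours they received either ATRA, all-trans retinoic acid, or its vehicle DMSO, and each group had 2 Illumina arrays. The control arrays are labelled both as untreated and as DMSO vehicle, and were taken here as vehicle. No source used here gives the dose of ATRA, and all 4 samples came from a single cell line. By its title the series is about retinoic acid that stem cells make themselves, and the comparison asks which transcripts differed 2 hours after ATRA was added.

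TALE proteins carry a homeodomain with an extension of its first loop. Pbx proteins bind DNA together with Hox proteins, while Meis and Pknox proteins bind Pbx proteins, help to carry them into the nucleus and can join the same complexes on DNA. Meis genes are known targets of retinoic acid in embryonal carcinoma cells and in the proximal limb bud, and Meis2 has the older name Stra10, for a gene stimulated by retinoic acid. Retinoic acid acts by binding its nuclear receptors at response elements in DNA, and it activates the anterior Hox genes, whose products use these cofactors.

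No Meis, Pbx or Pknox probe passed the test after 2 hours of ATRA. All 8 genes had at least 1 probe above background, and the differences from DMSO ran from -0.13 to 0.41 on the log2 scale over the 13 probes kept. The probes with the highest differences were 2 for Pbx2 and 1 for Meis2, all higher with ATRA. The 3 kept probes of Pknox1 and Pknox2 had differences between -0.01 and 0.00. By limma with Benjamini-Hochberg adjustment over the 19112 probes kept, 0 of 13 kept probes of the family passed an adjusted p of 0.05, against 1.58% of all kept probes. At an unadjusted p under 0.05 there were 3 of 13, all higher with ATRA, against 11.6% of all kept probes in either direction and 6.27% that were higher. In these whole-culture RNA samples, fewer cells expressing a gene and less RNA per cell cannot be told apart.

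Genes known to respond to retinoic acid served as the check of the treatment. Of 9 such genes 8 were named on the array, 4 were kept and 2, Cyp26a1 and Cdx1, passed by limma, against 1.82% of all genes. Crabp2 was kept, at 0.15, and did not pass (limma adjusted p = 0.763). Cyp26b1, Hoxb1, Dhrs3 and Stra6 were not kept. Cyp26a1, which encodes an enzyme that breaks down retinoic acid, rose by 1.99 on the log2 scale (SE 0.14, limma adjusted p = 2.59e-09). Its levels went from 4.78 and 5.07 with DMSO to 6.99 and 6.83 with ATRA. Its other probe was detected on ATRA replicate 2 alone and was not kept. Cdx1, a caudal homeobox gene with a known retinoic acid response element, rose by 0.88 (adjusted p = 0.000828) and by 1.58 at its other probe (adjusted p = 6.73e-08). Without the intensity trend the first Cdx1 probe had an adjusted p of 0.0904. Rarb, the receptor gene that is itself a target of retinoic acid, was undetected with DMSO and detected with ATRA on each array, and was at least 1.10-fold higher (adjusted p = 0.194, but 0.0432 with no background correction and 0.0491 with the shifted series matrix values). It was kept through its ATRA arrays alone, so it had to differ, and nothing is read from its adjusted p. Other Rarb probes were detected on no array. Of the markers of pluripotent stem cells, 8 of 8 were detected, among them Pou5f1 and Nanog, and 2 of the 8, Zfp42 and Sox2, fell (adjusted p = 0.00406 and 0.019), calls that were lost without ATRA replicate 1 (0.153 and 0.223), without the intensity trend (0.208 and 0.20) and, for Sox2, without ATRA replicate 2 (0.235). At an unadjusted p under 0.05 there were 3 of these 8 pluripotent markers. Over all genes, 1.82% passed and 12.4% had an unadjusted p under 0.05, in either direction. The summed linear level of the 8 markers was 43721 to 45362 with DMSO and 42952 to 43437 with ATRA. For fibroblast markers, 4 of 8 genes were kept and 0 passed by limma (0 at an unadjusted p under 0.05). Col1a2, Postn, Lum and Dcn were not kept. The summed linear level of the 4 kept genes was 202 to 209 with DMSO and 185 to 218 with ATRA. Of the primitive endoderm markers 3 of 6 were kept, of which Gata6 rose (adjusted p = 0.0266, but 0.622 without ATRA replicate 1, 0.155 without the intensity trend, 0.0823 without DMSO replicate 1 and 0.0798 with no filter on dim probes), with sums of 142.8 to 143.0 and 150 to 154, while Gata4, Sox17 and Foxa2 were not kept. Gata6 was undetected on DMSO replicate 1 and detected on both ATRA arrays, so its DMSO arrays alone would not have kept it. Its call is therefore not read as a response. Among the kept primitive endoderm markers, Dab2 was lower with ATRA (difference -0.27, limma adjusted p = 0.462) and did not pass. Of the neural markers 3 of 6 were kept and 0 passed by limma (1 at an unadjusted p under 0.05). Their sums were 165 to 185 and 190.3 to 211, while Pax6, Sox1 and Neurog2 were not kept. The part of these cells in the values below was not tested.

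Each level below is a normalised log2 intensity, given in the order DMSO replicate 1, DMSO replicate 2, ATRA replicate 1 and ATRA replicate 2. A probe counts as detected on an array when its detection p is under 0.05, which corresponds to a level of about 4.77 to 4.86, and it was kept when detected on at least 2 of the 4 arrays. Of the 27 probes 13 were kept. Of all 27, 12 were detected on all 4 arrays, 3 on some and 12 on none. All 6 probes designed on cDNA clones (2 for Meis1, 2 for Meis2 and 1 each for Pbx4 and Pknox2) were left out, as they were detected on no array, and 13 of the 21 probes on RefSeq transcripts were kept. Probes of a gene share their target, so they are not independent samples of it. Levels of different probes are not compared, since probes differ in brightness.

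**Figure D1:**
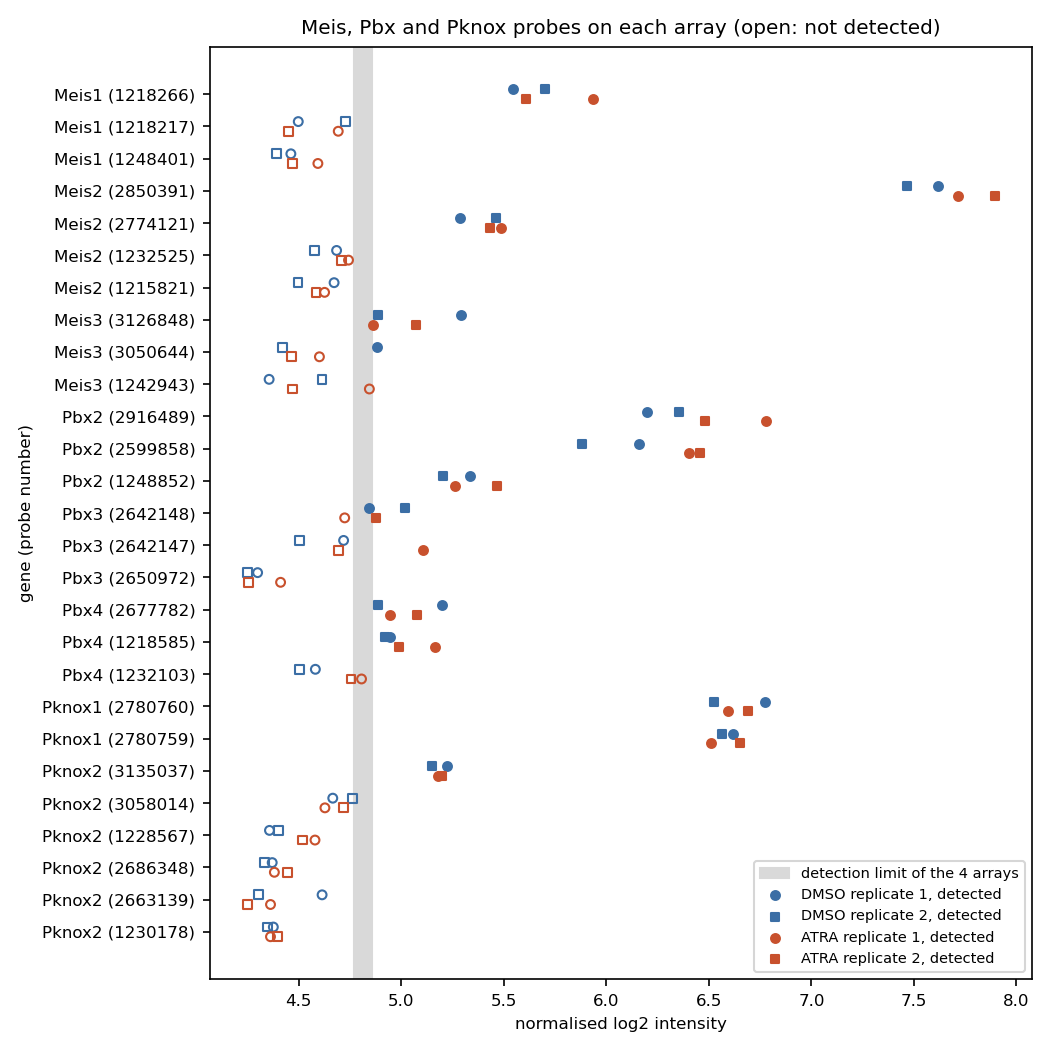
Normalised log2 intensity (x axis) of the 27 probes (y axis, gene and the number of its Illumina probe) on each of the 4 arrays, with filled points where the probe was detected and the grey band at the detection limit of 4.77 to 4.86. DMSO and ATRA points overlap for most probes, and the points of ATRA lie above both DMSO points for 4 of the 13 kept probes.

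Meis2 encodes a partner of Pbx and Hox proteins, with known roles in hindbrain, limb and eye development. Its brighter probe had levels of 7.62, 7.47, 7.71 and 7.89, from deposited intensities of 274, 255, 287 and 315. Both ATRA arrays lay above both DMSO arrays. The group means were 7.54 ± 0.11 and 7.80 ± 0.13 (SD, n = 2). The difference was 0.26 (SE 0.10; 95% interval 0.05 to 0.48), or 1.20-fold, and it did not pass (limma adjusted p = 0.295). Its other kept probe, on the same transcript record, had levels of 5.29, 5.46, 5.49 and 5.43. There the groups overlapped, and the difference was 0.09 (95% interval -0.22 to 0.40, limma adjusted p = 0.90). Without ATRA replicate 2 the difference of the brighter probe was 0.17, and without ATRA replicate 1 it was 0.35. Without the intensity trend the 95% interval of this probe was -0.003 to 0.53, which included zero.

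Meis1, known for its part in blood stem cells and in leukaemia together with Hoxa9, had 1 kept probe of 3. Its levels were 5.54, 5.70, 5.93 and 5.61. ATRA replicate 1 was the highest of the 4, and the other ATRA array lay between the DMSO arrays. The difference was 0.15 (SE 0.15; 95% interval -0.16 to 0.45, limma adjusted p = 0.780), and it was -0.01 without ATRA replicate 1. Its other probes were detected on no array.

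Meis3, which takes part in hindbrain patterning in frog embryos, had 1 kept probe of 3, close to the detection limit. Its levels were 5.29, 4.89, 4.86 and 5.07. DMSO replicate 1 stood highest and both ATRA arrays were below it. The difference was -0.12 (SE 0.18; 95% interval -0.49 to 0.25, limma adjusted p = 0.871), with a sign that turned to 0.08 without DMSO replicate 1. A further Meis3 probe was detected on DMSO replicate 1 alone, at 4.88, and DMSO replicate 1 was also the highest of the 4 arrays there. On the last Meis3 probe, detected on no array, DMSO replicate 1 was the lowest, at 4.36.

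Pbx2, a broadly expressed Pbx gene, was the member with the highest differences. Its brightest probe had levels of 6.20, 6.35, 6.78 and 6.48, and its next probe 6.16, 5.88, 6.40 and 6.46. On both probes the ATRA arrays lay above the DMSO arrays. For the brightest probe the means were 6.28 ± 0.11 with DMSO and 6.63 ± 0.21 with ATRA (SD, n = 2), a difference of 0.35 (SE 0.13; 95% interval 0.09 to 0.62), or 1.28-fold (limma adjusted p = 0.216). For the next probe they were 6.02 ± 0.19 and 6.43 ± 0.04 (SD, n = 2), a difference of 0.41 (SE 0.13; 95% interval 0.14 to 0.67), or 1.33-fold (limma adjusted p = 0.140). Neither passed. The dimmest of the 3 Pbx2 probes had levels of 5.33, 5.20, 5.26 and 5.47, where the groups overlapped. Its difference was 0.10 (95% interval -0.23 to 0.42, limma adjusted p = 0.889). All 3 probes are annotated to the same transcript record.

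Whether a Pbx2 probe passed depended on which array was left out. Without DMSO replicate 2 the brightest probe passed (difference 0.43, limma adjusted p = 0.0423), while without DMSO replicate 1 it had a difference of 0.28 and an adjusted p of 0.324. The next probe went the other way, passing without DMSO replicate 1 (difference 0.55, adjusted p = 0.0158) and having a difference of 0.27 (adjusted p = 0.283) without DMSO replicate 2. Leaving out ATRA replicate 1 gave 0.21 for the brightest probe (adjusted p = 0.959). With no background correction the differences of these probes were 0.19 and 0.20.

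**Figure D2:**
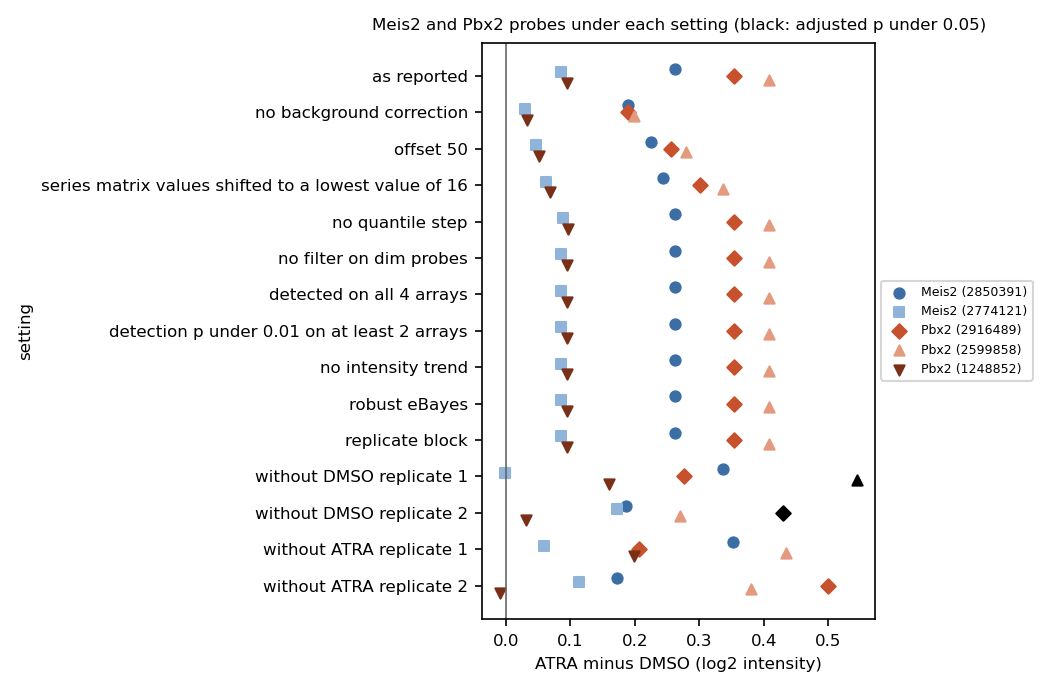
Difference between ATRA and DMSO in log2 intensity (x axis) of the 2 kept Meis2 probes and the 3 Pbx2 probes under each processing setting (y axis), with black points for an adjusted p under 0.05. Black points appear for 2 settings, the loss of DMSO replicate 1 (0.55) and of DMSO replicate 2 (0.43), on different Pbx2 probes.

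In the fit as reported, Meis2 and Pbx2 are the genes with a probe whose interval left out zero. The 250 bases before an annotated start of each are therefore shown, from RefSeq on GRCm38.p6. The start of Meis2 used here lies on the minus strand at chr2:116064620-116064869, and that of Pbx2 on the plus strand at chr17:34592009-34592258. Both are written 5′ to 3′ on the strand of the gene, with CpG dinucleotides in capitals.
Meis2: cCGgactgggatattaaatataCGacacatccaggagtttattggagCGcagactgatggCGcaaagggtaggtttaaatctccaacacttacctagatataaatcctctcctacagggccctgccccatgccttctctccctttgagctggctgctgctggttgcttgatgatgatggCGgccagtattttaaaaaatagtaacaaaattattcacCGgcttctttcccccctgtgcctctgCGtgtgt
Pbx2: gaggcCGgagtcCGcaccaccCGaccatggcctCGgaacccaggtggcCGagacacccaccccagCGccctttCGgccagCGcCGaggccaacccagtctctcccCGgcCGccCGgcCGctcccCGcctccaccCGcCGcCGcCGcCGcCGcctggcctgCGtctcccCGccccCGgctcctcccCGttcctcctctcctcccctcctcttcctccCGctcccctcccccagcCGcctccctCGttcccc
The Pbx2 stretch holds 27 CpG dinucleotides and is 77.6% G or C, and the Meis2 stretch holds 7 and is 47.6% G or C, against medians of 6 and 52.4% over 32851 promoters of the same length. Of the 8 genes 5 had such a promoter (Meis1, Meis2, Meis3, Pbx2 and Pbx4). In these 5 stretches 3 motifs were searched on both strands. They were AGGTCA, a single site of retinoic acid receptors, which 14.0% of all promoters hold, TGACAG of Meis and Pknox proteins (15.9%) and TGATNNAT of Pbx with Hox proteins (7.68%). The 5 stretches held 0 matches, which says only that these letters are not in these windows.

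Pbx3, known for roles in the brainstem control of breathing and in leukaemia, had 1 kept probe of 3, at the detection limit. Its levels were 4.84, 5.02, 4.72 and 4.88, and all arrays except ATRA replicate 1 detected it. The groups overlapped, with a difference of -0.13 (SE 0.18; 95% interval -0.50 to 0.23, limma adjusted p = 0.855). A further Pbx3 probe was detected on ATRA replicate 1 alone, at 5.11, and its remaining levels were 4.72, 4.50 and 4.69. The 2 probes thus differed in sign, and both lay near the detection limit.

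Pbx4, known for its expression in the testis, had 2 kept probes of 3, both near the detection limit on all 4 arrays. The brighter had levels of 5.20, 4.89, 4.94 and 5.08, and the groups overlapped. Its difference was -0.03 (95% interval -0.39 to 0.32, limma adjusted p = 0.972). The other had levels of 4.95, 4.92, 5.17 and 4.99, with both ATRA arrays above both DMSO arrays. Its difference was 0.14 (95% interval -0.20 to 0.49, limma adjusted p = 0.824), so the probes of this gene had opposite signs.

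Pknox1, also called Prep1, is needed for early mouse development and keeps Pbx proteins stable. Its brighter probe had levels of 6.77, 6.52, 6.59 and 6.69, and its other probe 6.62, 6.57, 6.51 and 6.65. On both probes the groups overlapped. The differences were -0.01 for both (95% intervals -0.25 to 0.24 and -0.25 to 0.23, limma adjusted p = 0.995 and 0.986). These intervals run from 0.838-fold to 1.18-fold and from 0.838-fold to 1.17-fold.

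Pknox2, also called Prep2, had 1 kept probe of 6. Its levels were 5.22, 5.15, 5.18 and 5.20, with both ATRA arrays between the DMSO arrays. The difference was 0.00 (SE 0.16; 95% interval -0.33 to 0.33, limma adjusted p = 0.999), an interval from 0.798-fold to 1.26-fold. The other 5 probes were detected on no array.

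**Figure D3:**
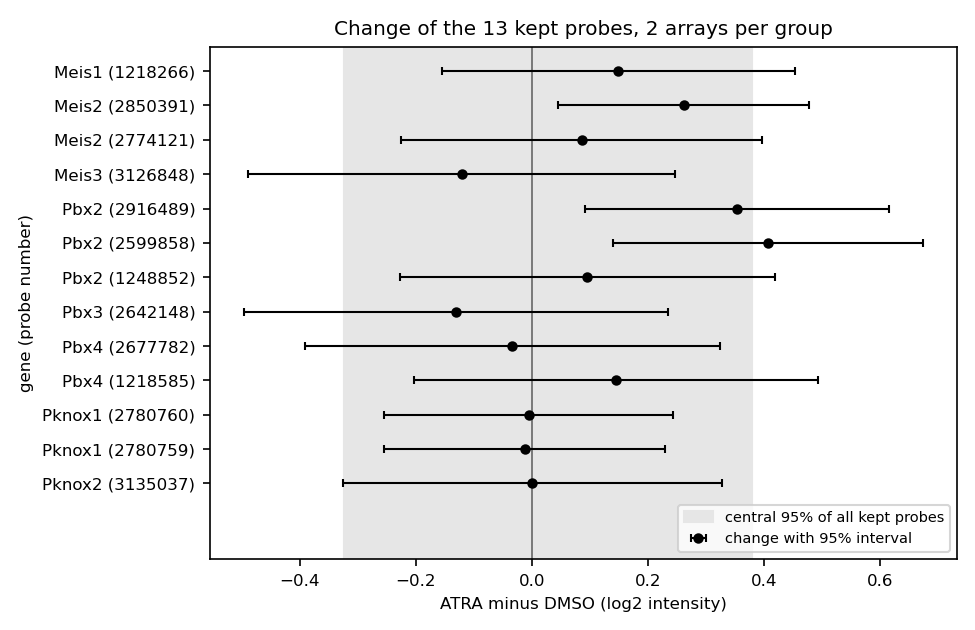
Difference between ATRA and DMSO in log2 intensity (x axis) with its 95% interval from the limma fit for the 13 kept probes (y axis), over a grey band that holds the central 95% of all 19112 kept probes, from -0.32 to 0.38. The Pbx2 probe at 0.41 lies outside the band, and the intervals of 3 probes leave out zero.

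Across the 13 kept probes 8 were higher and 5 lower with ATRA. Their median difference was 0.09, against -0.01 over all kept probes, and by the brightest probe of each of the 8 genes it was 0.00, against 0.00 over all 10194 genes. Both ATRA arrays lay above both DMSO arrays on 4 of the 13 probes (2 of Pbx2, 1 of Meis2 and 1 of Pbx4) and below them on 0, where over all kept probes the shares were 19.6% and 21.2%, or 40.8% in all. The remaining 9 overlapped. Among the 14 probes not kept, the ATRA arrays were above on 5 and overlapped on 9, against 33.2% that did not overlap, in either direction, over all such probes. Their levels were 4.25 to 5.11 and their differences -0.15 to 0.29, and 12 of them were detected on no array. The standard errors of the kept probes ran from 0.10 to 0.18, and the 95% intervals reached 0.22 to 0.37 on either side of the difference. In the fit as reported, these intervals reached at most a 1.60-fold rise, at Pbx2, and a fall to 0.709-fold, at Pbx3. Some intervals reached further with an array left out. The folds are on the log2(value + offset) scale, which understates changes of dim probes such as that of Pbx3. They are therefore not limits on the change in RNA.

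**Figure D4:**
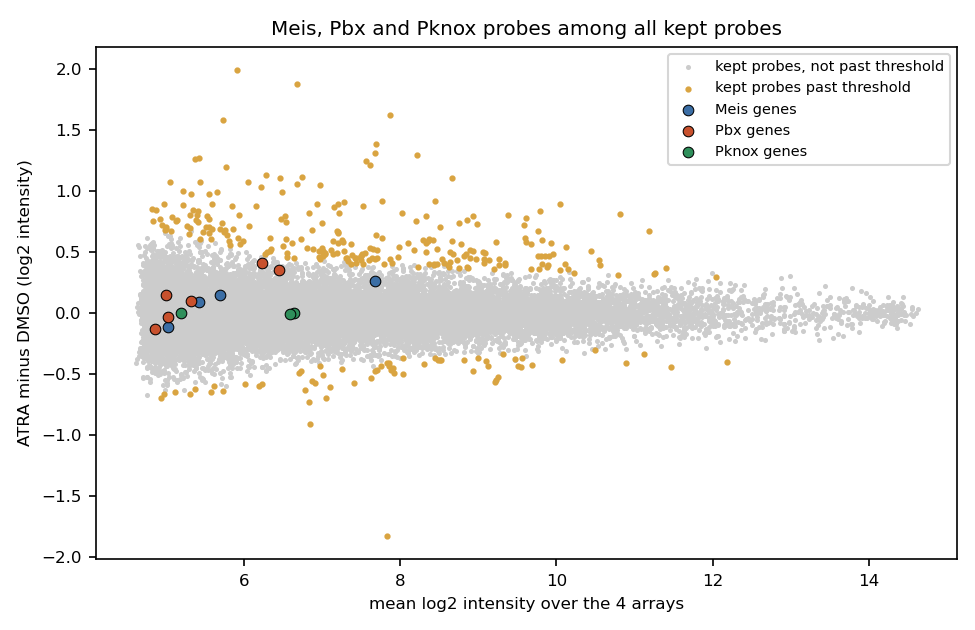
Difference between ATRA and DMSO in log2 intensity (y axis) against the mean log2 intensity over the 4 arrays (x axis) for the 19112 kept probes, with the 302 past the threshold in yellow and the 13 probes of Meis, Pbx and Pknox genes in blue, red and green. The 13 lie among the probes that did not pass.

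The other TALE homeobox genes on the array were described in the same way. Of 9 genes (Tgif1, Tgif2, Irx1 to Irx6 and Mkx), 5 were kept, of which 1 fell and 0 rose, against 1.82% of all genes called in either direction. All 5 were lower with ATRA, with a median difference of -0.24, against 0.00 over all genes. Tgif1, a TALE repressor of SMAD and retinoid signalling, had levels of 9.39, 9.20, 8.89 and 8.91 and fell by 0.39 (SE 0.09, limma adjusted p = 0.0216). Its other kept probes were at -0.38 and -0.10 and did not pass (adjusted p = 0.133 and 0.905). The Tgif1 call was lost without DMSO replicate 1 (limma adjusted p = 0.0662), without ATRA replicate 1 (0.248), without ATRA replicate 2 (0.159) and without the intensity trend (0.246). Its relative Tgif2 was at -0.14 (adjusted p = 0.768). The Iroquois genes Irx2 and Irx3, which pattern neural tissue, were at -0.26 and -0.07 (adjusted p = 0.549 and 0.910), with a further Irx2 probe at -0.43 (adjusted p = 0.315), and Mkx, a factor of tendon development, was at -0.24 (adjusted p = 0.610).

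Hox partners were mostly dim. Of 30 Hox genes of paralog groups 1 to 10, 29 were named on the array and 12 were kept. By limma 0 of the 12 passed. At an unadjusted p under 0.05 there were 3 of the 12, against 12.4% of all genes. The 3 include Hoxa5, kept through its ATRA arrays alone, so this count is not read against that share. Differences ran from -0.27 to 0.47 over the 10 genes detected in both groups. The other 2, Hoxa5 and Hoxb5, named after their values were seen, were undetected on both DMSO arrays and kept through their ATRA arrays alone, so they had to differ. The lower bound of the ratio of ATRA to DMSO was 1.26-fold for Hoxa5 and 1.17-fold for Hoxb5. With both at these bounds the median of the 12 was 0.05. Hoxa5 had a limma adjusted p of 0.117, and of 0.0446 without DMSO replicate 2, from which nothing is read. Of 8 other partners of Pbx and Meis proteins 2 were kept, the homeobox genes En1 and En2 of the midbrain and hindbrain, whose proteins bind DNA with Pbx proteins. En1 had levels of 6.28, 6.26, 5.86 and 5.81, with both ATRA arrays lower, and a difference of -0.44 that did not pass (limma adjusted p = 0.0963). On its other kept probe the groups overlapped, with a difference of -0.16 (limma adjusted p = 0.813). En2 was at -0.24 (adjusted p = 0.406). By limma 0 of the 2 passed, and 2 had an unadjusted p under 0.05, against 12.4% of all genes in either direction. With 2 genes kept of 8, nothing is read from this count.

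Pbx2 was the member with the largest difference by brightest probe, so its pattern over the 4 arrays was set against those of 10186 other genes by the Euclidean distance of centred log2 values. The nearest were Tdrd7 (distance 0.043), Olfr1381 (0.048) and Timm17b (0.065), all with ATRA replicate 1 highest and DMSO replicate 1 lowest. That shared order follows from the choice by distance. Tdrd7 and Olfr1381 had levels of 4.81 to 5.38, near the detection limit. None of the 3 passed by limma (1 at an unadjusted p under 0.05), with adjusted p of 0.376, 0.514 and 0.437. In all, 13 genes lay within a distance of 0.1.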

How the data were processed

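Total RNA was profiled on 4 single-colour Illumina arrays, 2 per group, grouped by their treatment labels. Per the submitters' processing notes, GenomeStudio made the values (version not given in the sources used here). The authors deposited linear intensity values with a detection p-value for each. The sorted intensity values of the arrays differed by at most 0.228, so the deposited table, though named non-normalized, was already quantile normalized. The deposited series matrix is the same intensity minus 93.5. No label states separate cultures, so p-values cover the spread of these samples alone, possibly technical.

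With limma 3.58.1 (R 4.3.3), neqc applied normexp (negative controls inferred from detection p), an offset of 16, quantile normalization and log2. Changes are therefore on the log2(value + offset) scale, which understates dim probes, and a shift common to most probes cannot be seen. Probes with a detection p under 0.05 on at least 2 of 4 arrays were kept (19112, 42.2%). The test was lmFit and eBayes with an intensity trend, the group as the only term, and Benjamini-Hochberg adjustment over all kept probes; every adjusted p in the text is from limma. With 2 arrays against 2 an exact permutation test cannot give a p under 0.333. The number of arrays limits the precision. The fit was tested on simulated data.

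Names came from the platform annotation, checked against RefSeq through Entrez identifiers. A gene is represented by its kept probe with the highest mean. Named genes are the 8 members, all kept genes of the other TALE and other partner lists, and list genes past the threshold. Also named are 3 checks of the treatment and the 3 genes most like the member with the largest change. Marker genes past the threshold, Dab2 and the other genes of the treatment check were added after their values were seen. The members and lists were chosen with earlier results of these data known. Alternatives changed the background correction, offset, deposited table, quantile step, filter, eBayes settings, replicate block, arrays and probe choice.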

Additional observations from a re-analysis of the deposited data

How the results depend on the processing

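With any array left out, the number of probes past the threshold over the whole array ran from 133 to 956, against 302 with all 4. It was 74 without the intensity trend. The number of Meis, Pbx and Pknox probes past the threshold was 0, and 0 to 1 with an array left out. With an array left out, the difference ran from -0.0137 to 0.311 for Meis1, -0.322 to 0.0801 for Meis3, 0.21 to 0.50 for Pbx2, -0.13 to 0.12 for Pknox1 and -0.0362 to 0.0383 for Pknox2. For Pbx4 it ran from -0.19 to 0.23 by the brightest kept probe, which was the other probe without DMSO replicate 1 or ATRA replicate 2, and from -0.19 to 0.12 on the same probe throughout. With the mean of all kept probes Pbx4 was at 0.0555. Every sign that turned belonged to a difference whose interval included zero. By the brightest kept probe, or the mean of all kept probes, Meis2, Pbx2 and Pbx3 kept their sign under all alternatives run. Their ranges were 0.17 to 0.35, 0.19 to 0.50 and -0.22 to -0.04, over 15, 15 and 13 alternatives. The other kept Meis2 probe was at -0.0008 without DMSO replicate 1, and the dimmest Pbx2 probe at -0.009 without ATRA replicate 2. The count for other TALE genes was 0 to 1 with an array left out and 0 without the intensity trend, that for Hox partners 0 to 1, and that for retinoic acid responsive genes, 2 with all 4 arrays, was 1 without the trend and 3, with Rarb, with no background correction or the shifted series matrix values. Rarb was kept through its ATRA arrays alone, so its call is not read as a response. The same holds for Hoxa5, the Hox partner counted. With the replicate block, 492 probes passed and 0 of the 13 did. The brightest probes of Pbx2 and Meis2 then had limma adjusted p of 0.127 and 0.217, and the next Pbx2 probe 0.0714. Same-numbered arrays did not deviate together (correlation of deviations across probes -0.003), so the numbers were not taken as pairs. The causes of these shifts were not tested. With a group of 1 array, that array is assumed to vary like the other group. Signals near background limit Meis3, Pbx3, Pbx4 and Pknox2.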
